A study of Homo sapiens with 6 samples.

Results

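The ETS family transcription factors described here are 10 genes, ETS1, ETS2, ELF1, ELF3, ETV1, ETV4, ETV5, ELK1, GABPA and ERF. They were found by symbol in the deposited count table of 20289 genes, and all 10 were among the 13265 genes that passed the filter on low counts. The libraries were poly(A) RNA of Huh7, an established human hepatocellular carcinoma line. Wild-type cells (3 libraries) were compared with UBE2S knockout cells (3 libraries); no other allele or agent is named for either group, and the labels do not say whether the knockout was 1 clone or whether replicates were separate cultures. UBE2S encodes a ubiquitin-conjugating enzyme of the anaphase-promoting complex, and the series set out to find genes downstream of it. The 10 genes were chosen with their difference between knockout and wild type already known, so that difference is given as a description, with its standard error and no p-value for a single member.

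ETS proteins share a winged helix-turn-helix DNA-binding domain, the ETS domain, that reads a GGAA core, and they differ in the bases beside the core and in their partners. Many are substrates of the mitogen-activated kinase ERK, which turns growth factor signals into transcription. ETS1, ETS2 and the PEA3 group (ETV1, ETV4 and ETV5) are activators, ELK1 binds DNA together with the serum response factor SRF, and GABPA pairs with GABPB1 or GABPB2 at promoters of housekeeping and mitochondrial genes. ELF3 is an epithelial member, ELF1 is broadly expressed, and ERF is a repressor that leaves the nucleus when ERK phosphorylates it.

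The libraries held 21840499 to 27910396 estimated counts. Levels are given as CPM, counts scaled to library size. UBE2S itself had a level of 224 ± 9.37 CPM in wild-type cells, and 45.7 ± 1.70 CPM was left in knockout cells (mean ± SD over 3 libraries), so the targeted gene matched the labels. Wild-type replicate 1 stood apart from the other wild-type libraries, since chi-square over its degrees of freedom was 8.46 and 10.96 against them and 1.79 between the other two. Calls of members that this library changes, and counts of a gene list that it moves by over 1.5 times, are given with and without it. The 9 hepatocyte markers, among them ALB and AFP, were all abundant. Of them 2 rose and 7 fell, where 29.4% and 30.7% of all tested genes did. They summed to 31145 to 31754 CPM in wild-type libraries and 28189 to 28744 CPM in knockout libraries.

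In GRCh38 (GENCODE release 29) the 10 genes lie on 9 chromosomes. ETS1 spans chr11:128458761-128587558 on the minus strand, ETV1 chr7:13891228-13991425 (minus), ETV4 chr17:43527844-43579620 (minus) and ETV5 chr3:186046308-186110318 (minus). ELF3 spans chr1:202007945-202017188 (plus), ELF1 chr13:40932028-41061440 (minus), ELK1 chrX:47635521-47650604 (minus) and ERF chr19:42247572-42255157 (minus). ETS2, at chr21:38805307-38824955, and GABPA, at chr21:25734570-25772460, share a chromosome and the plus strand. The number of annotated protein-coding transcripts ran from 2 for GABPA to 14 for ETV1, and the gene-level values below sum over them. ETS1, ELF3 and ETV5 each overlap an annotated antisense RNA gene, ELF1 overlaps WBP4 and ETV4 overlaps DHX8 on the opposite strand, and ERF and ETV5 (with DGKG) also overlap a coding gene on their own strand, so some reads of these loci may belong to the partner.

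Upstream windows of 250 bases before annotated starts were taken from RefSeq (GRCh38.p14) for 7 of the 10 genes. They were 17 windows in all, since genes such as ETV1 have several starts. No window was available for ETS1, ETV4 and ETV5 in the set used. The windows below are shown because ETV1 and ELF3 were lower in the knockout while ETS2 and GABPA were higher, and they let the ETS core be compared between them. Each is written 5′ to 3′ on the strand of the gene, ending at the base before the start, and capitals mark CGGAA, the GGAA core with a C before it, or TTCCG, the same on the other strand. The ELF3 window has no such match, and neither has the other ETS2 window, chr21:38805679-38805928, which is not shown. Other ETV1 windows, not shown, include some with a match and some without. The RefSeq starts of ELF3 and GABPA lie inside their longer GENCODE spans.
ETV1, chr7:13991426-13991675, minus: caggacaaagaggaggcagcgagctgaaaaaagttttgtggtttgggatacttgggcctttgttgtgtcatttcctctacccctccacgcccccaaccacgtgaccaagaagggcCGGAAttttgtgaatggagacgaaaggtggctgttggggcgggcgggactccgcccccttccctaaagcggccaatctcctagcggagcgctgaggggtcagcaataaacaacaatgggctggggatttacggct
ELF3, chr1:202010337-202010586, plus: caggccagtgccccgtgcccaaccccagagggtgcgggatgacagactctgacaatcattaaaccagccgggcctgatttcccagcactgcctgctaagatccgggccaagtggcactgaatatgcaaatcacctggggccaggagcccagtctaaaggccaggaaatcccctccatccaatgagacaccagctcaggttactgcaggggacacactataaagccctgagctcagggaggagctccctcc
ETS2, chr21:38804933-38805182, plus: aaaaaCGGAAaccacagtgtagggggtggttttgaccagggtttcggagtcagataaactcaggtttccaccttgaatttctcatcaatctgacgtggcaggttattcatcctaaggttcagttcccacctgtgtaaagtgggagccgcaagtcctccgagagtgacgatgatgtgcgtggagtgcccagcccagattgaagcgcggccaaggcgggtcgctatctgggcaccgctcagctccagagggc
GABPA, chr21:25734722-25734971, plus: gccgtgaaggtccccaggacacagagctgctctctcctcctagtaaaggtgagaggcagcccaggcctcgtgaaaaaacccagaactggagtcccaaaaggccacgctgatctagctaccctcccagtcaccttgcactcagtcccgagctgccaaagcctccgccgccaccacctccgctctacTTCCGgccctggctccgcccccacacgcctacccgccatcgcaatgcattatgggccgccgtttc

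CGGAA, searched on both strands, was present in windows of 5 of the 7 genes (ETS2, ELF1, ETV1, GABPA and ERF) and in 7 of their 17 windows. Over all 35116 RefSeq windows 30.3% held it, and 34.5% of 27305 genes had it in a window. The ETV1 windows chr7:13990703-13990952 and chr7:13990707-13990956 overlap and hold the same matches, so these are counted more than once. Genes with more windows also have more chances of a match. The longer ETS site CCGGAAG, which contains CGGAA, was found in 1 gene, GABPA, starting 66 bases before the start, where 10.2% of 27305 genes had it in a window. The octamer bound by the repressor CIC (TGAATGAA, TGAATGAG, TCAATGAA or TCAATGAG, both strands) was in 0 of the 17 windows, where ETV1 is the PEA3 gene searched, against 3.37% of all windows. The AP-1 site TGANTCA (N is any base) and the CArG box bound by SRF were also in 0 of the 17, against 6.57% and 1.16%. These are matches of letters in short windows and show neither binding nor its absence.

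Among the 17 ETS genes tested, ETS1 showed the largest difference, a near loss of its mRNA in the knockout. ETS1, first described in the v-ets oncogene and a regulator of lymphoid, endothelial and invasive programmes, had 182, 168 and 177 counts in wild-type libraries and 4, 12 and 8 counts in knockout libraries. These were 6.73, 7.21 and 6.31 CPM against 0.182, 0.513 and 0.308 CPM. Every knockout library lay far below every wild-type library, and ETS1 passed the filter on low counts through the wild-type libraries. The summed counts, 527 against 24, gave a wild-type level 19.98 times that of the knockout (exact 95% binomial interval 13.3 to 31.5, counting error only), and the fitted log2 fold change was -4.30 (SE 0.21). Among the 13265 tested genes 49 had a more negative fold change. The 37 nearest tested genes of its chromosome had a median log2 fold change of 0.00030, and the adjacent tested genes ST3GAL4 (-0.14, SE 0.09) and ARHGAP32 (-0.10, SE 0.08) did not pass the test.

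ETS2, the closest relative of ETS1, went the other way. Its levels were 74.6, 71.8 and 73.6 CPM in wild-type cells and 92.6, 90.3 and 94.6 CPM in the knockout, without overlap of the groups. The log2 fold change was 0.33 (SE 0.03), beside a neighbourhood median of -0.011. ETS1 and ETS2 thus differed in opposite directions, and ETS2 was the more abundant in both groups.

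Within the PEA3 group ETV1 and ETV5 were lower in the knockout, and ETV4 was not called. ETV1 stood lower in the knockout, at 11.7, 13.0 and 13.9 CPM against 24.8, 23.8 and 22.6 CPM in wild type. Its log2 fold change was -0.88 (SE 0.07), while its 50 tested neighbours had a median of 0.23, the opposite sign. ETV5 was lower by less, at 36.5, 36.7 and 38.9 CPM against 49.0, 49.0 and 46.9 CPM. Its log2 fold change was -0.37 (SE 0.04), and its neighbourhood was lower as well, with a median of -0.25; less this median, ETV5 was at -0.12. The adjacent tested genes TRA2B (0.03, SE 0.03) and CRYGS (0.14, SE 0.33) did not pass the test. The groups did not overlap for either gene. ETV4, the most abundant of the 3, was at 119, 123 and 122 CPM in wild-type cells and 125, 122 and 123 CPM in the knockout. These ranges overlapped, and the log2 fold change was 0.02 (SE 0.03). DHX8, which overlaps ETV4, rose by 0.10 (SE 0.03, edgeR adjusted p = 0.019).

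**Figure D1:**
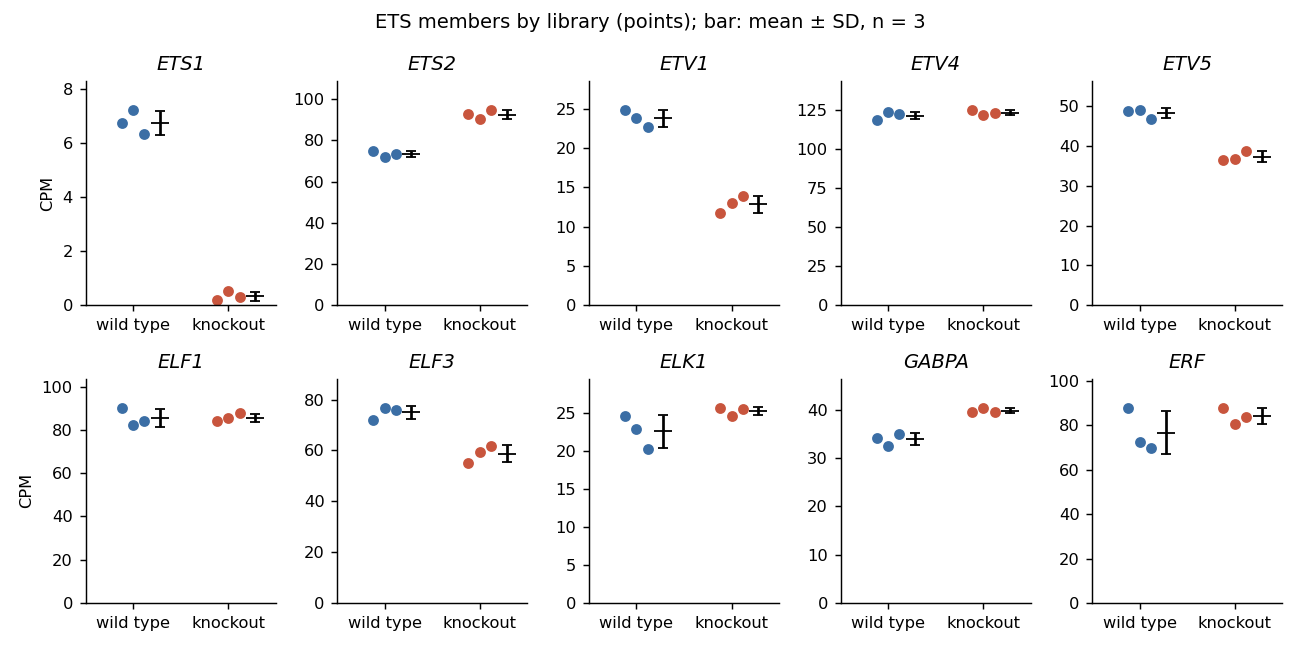
CPM of each member in the 3 wild-type (blue) and 3 knockout (red) libraries, each panel on its own linear axis from 0; black bars are the mean ± SD (n = 3). ETS1 is close to 0 in the knockout, ETV1, ETV5 and ELF3 are lower, ETS2 and GABPA are higher, and the groups overlap for ETV4, ELF1, ELK1 and ERF.

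ELF3 and ELF1, both named for similarity to the Drosophila gene E74, differed from each other. ELF3 was at 72.2, 76.7 and 76.0 CPM in wild-type cells and 55.2, 59.3 and 61.7 CPM in the knockout, with no overlap. Its log2 fold change was -0.35 (SE 0.05); its neighbours had a median of -0.092, and the adjacent gene RNPEP, 1798 bases away, fell by 0.28 (SE 0.04, edgeR adjusted p = 0.00010). ELF1 was at 90.1, 82.2 and 84.3 CPM against 84.0, 85.3 and 87.7 CPM, so the ranges overlapped, and its log2 fold change was 0.0016 (SE 0.04).

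GABPA was slightly higher in the knockout, at 39.6, 40.4 and 39.5 CPM against 34.3, 32.6 and 35.1 CPM. The groups did not overlap, and the log2 fold change was 0.23 (SE 0.05). GABPA overlaps the oppositely oriented ATP5PF, the gene for an ATP synthase subunit, and its deposited counts were not whole in any library. ATP5PF was at -0.09 (SE 0.05) and did not pass the test.

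The remaining pair, ELK1 and ERF, depended on 1 library. ELK1 was at 24.6, 22.8 and 20.2 CPM in wild-type cells and 25.6, 24.5 and 25.5 CPM in the knockout. ERF was at 87.9, 72.7 and 69.8 CPM in wild-type cells and 87.9, 80.8 and 83.9 CPM in the knockout. In both genes wild-type replicate 1 was the library that reached the knockout range, and the other wild-type libraries lay below it. With all libraries the log2 fold changes were 0.16 (SE 0.07) for ELK1 and 0.13 (SE 0.07) for ERF. Without wild-type replicate 1 they were 0.23 and 0.24, and both genes then passed the adjusted threshold. The library left out was the one that reached the knockout range, and the members were chosen on this contrast. Nothing is therefore read from this passing. Neighbours of ERF had a median of -0.34, so that ERF stood 0.47 above them, and the adjacent repressor gene CIC was at 0.0081 (SE 0.05).

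By the edgeR quasi-likelihood test with Benjamini-Hochberg adjustment over all genes, 2 of the 10 members were called higher (ETS2 and GABPA) and 4 lower (ETS1, ETV1, ETV5 and ELF3). Of all tested genes 29.4% were called higher and 30.7% lower, 60.1% in all. At 6 members the groups did not overlap, as at 65.8% of all tested genes. Since the members were chosen on this contrast, nothing is read from these counts. Without wild-type replicate 1, 4 members were called higher and 4 lower, where 30.8% and 32.5% of all tested genes were. The median log2 fold change of the 10 members was 0.012, beside -0.0006 over all tested genes.

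**Figure D2:**
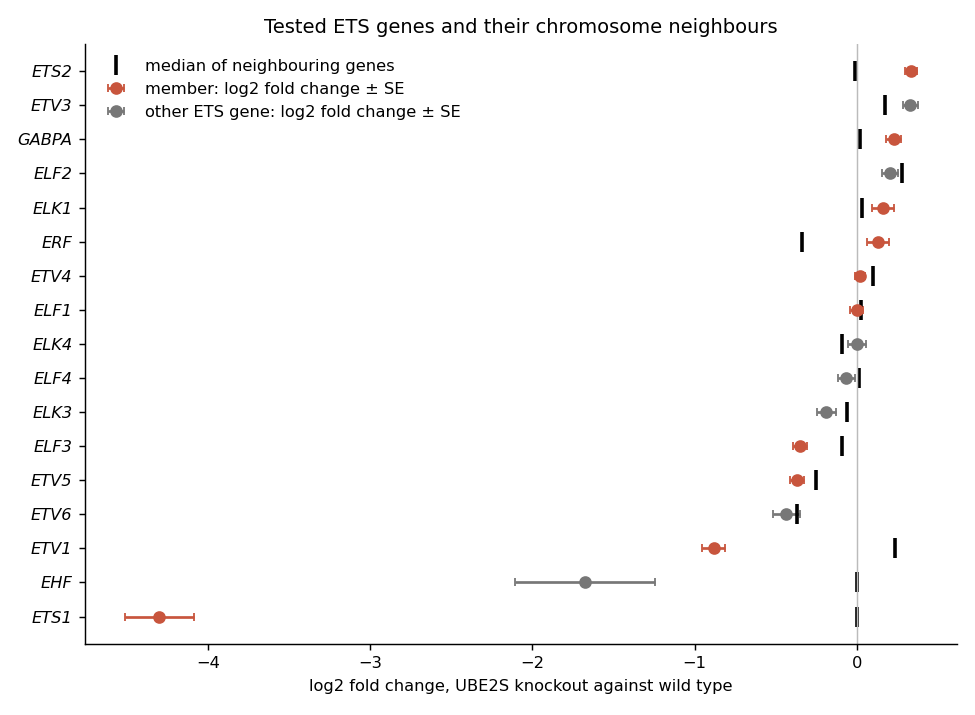
Log2 fold change of knockout against wild type with its standard error for the 10 members (red) and the 7 other tested ETS genes (grey); black ticks are the median of up to 25 tested genes on each side of the gene on its chromosome. ETS1 and ETV1 lie far below their neighbours, ERF lies above its neighbours, and ETV5 and ETV6 lie near lowered neighbours.

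Levels were compared between genes per length, as CPM per kb of annotated exon. In wild type ETV4 was highest at 33.6 ± 0.668, followed by ERF (23.3 ± 2.95), ELF1 (19.7 ± 0.945), ETS2 (16.0 ± 0.307) and ELF3 (10.4 ± 0.340). ETV5 (8.32 ± 0.211), ELK1 (6.63 ± 0.646), GABPA (6.26 ± 0.239), ETV1 (2.47 ± 0.113) and ETS1 (0.944 ± 0.0625) completed the order (mean ± SD, n = 3). Neighbours in this order did not overlap between libraries, except ELK1 and GABPA.

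In the knockout ETV4 (34.1 ± 0.400) and ERF (25.5 ± 1.08) remained first and second by this measure. ETS2 (20.1 ± 0.466) stood beside ELF1 (19.8 ± 0.430), with overlapping libraries, and ETV5 (6.44 ± 0.229) came after ELF3 (8.17 ± 0.452), ELK1 (7.42 ± 0.171) and GABPA (7.34 ± 0.0896). ETV1 (1.34 ± 0.114) and ETS1 (0.0468 ± 0.0234) were again last.

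Summed over all 28 human ETS genes, the per-length level was 156 ± 4.40 in wild type and 159 ± 1.35 in the knockout, and the libraries of the groups overlapped (153 to 161 against 158 to 160.4). The 10 members made up 81.8% of the sum in both groups. The PEA3 group held 28.5% ± 1.09 of it in wild type and 26.3% ± 0.0584 in the knockout, and ETV4 alone 21.6% and 21.4%. ETS1 held 0.605% ± 0.0432 in wild type and 0.0294% ± 0.0149 in the knockout, so its near loss took little from the family's total mRNA.

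**Figure D3:**
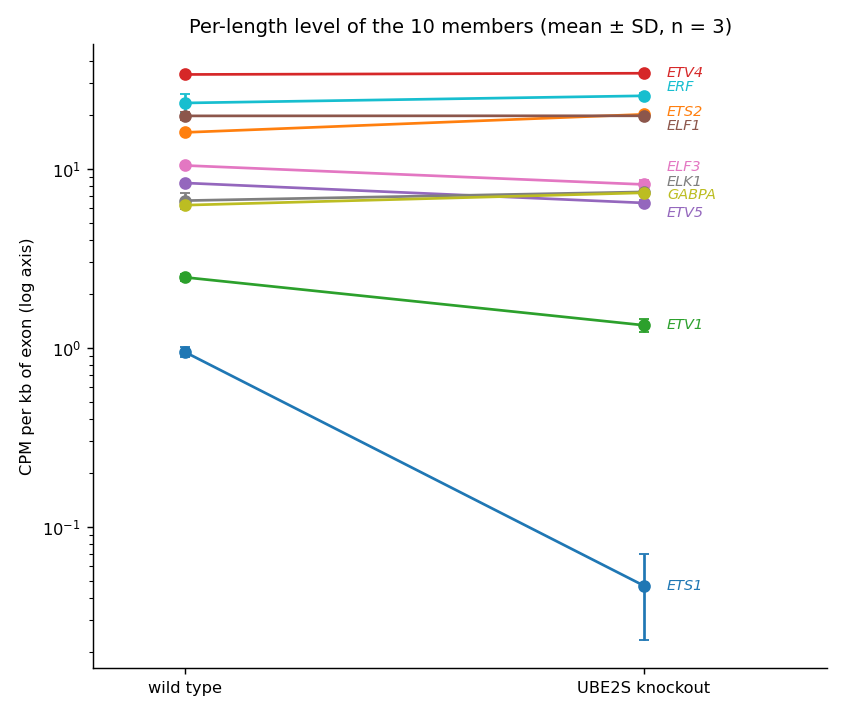
Per-length level (CPM per kb of exon, log axis) of the 10 members in wild type and knockout, as mean ± SD over 3 libraries. ETV4 is highest in both groups (33.6 and 34.1) and ETS1 lowest (0.944 and 0.0468); ETS2 reaches the level of ELF1 in the knockout.

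Of the 18 other human ETS genes, 7 passed the filter on low counts (median log2 fold change -0.07, EHF included). By the edgeR test ETV3 and ELF2 were called higher in the knockout, and ETV6 and ELK3 lower, with EHF left aside. Of all tested genes 29.4% were called higher and 30.7% lower. ETV3, which encodes a repressor related to ERF, rose by 0.33 (SE 0.05, edgeR adjusted p = 5.7e-05) and ELF2 by 0.21 (SE 0.05, edgeR adjusted p = 0.0025). ETV6, a repressor known from leukaemia fusions, fell by 0.43 (log2, SE 0.08, edgeR adjusted p = 5.6e-04), and ELK3, a partner of SRF like ELK1, fell by 0.19 (SE 0.06, edgeR adjusted p = 0.013). The neighbourhood medians of ELF2 (0.28) and ETV6 (-0.37) were close to the values of these genes. EHF, an epithelial relative of ELF3, was scarce, with 33, 14 and 21 counts in wild-type libraries against 6, 10 and 3 in knockout libraries, and it passed the filter on low counts through the wild-type libraries, so that no test of it is given. Its summed counts were 68 and 19, a wild-type level 3.26 times that of the knockout (exact 95% binomial interval 1.93 to 5.74, counting error only). ELK4 (0.00057, SE 0.06) and ELF4 (-0.07, SE 0.05) did not pass the test.

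The remaining 11 had at most 11 counts in any library. ERG, SPI1 and SPIC had 0 counts in every library, and FLI1, the chromosomal neighbour of ETS1, had 1 count in all.

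Markers of other cell types were followed because ETS1 is abundant in lymphoid and endothelial cells. Among 8 haematopoietic markers CD3E and SPI1 were at 0 in every library and PTPRC was at most 0.285 CPM, while LYZ, CD68 and CD14 were measured and lower in the knockout. The list summed to 290.3 to 313.9 CPM in wild-type cells and 179.8 to 182.7 CPM in the knockout. Among 7 endothelial markers KDR and ERG were at 0 and 6 were below 1 CPM on average. The list summed to 5.51 to 6.82 CPM in wild-type cells and 2.27 to 2.52 CPM in the knockout. The remaining marker was measured, made up most of this sum in both groups and was lower in the knockout. The 7 stromal markers summed to 145 to 161 CPM in wild-type cells and 26.9 to 28.5 CPM in the knockout. COL1A2, a fibrillar collagen gene at 139 ± 8.94 CPM in wild-type and 0.338 ± 0.0768 CPM in knockout cells, set the lower sum, while 4 markers of the list rose, COL1A1 (1.24, SE 0.20), COL3A1 (0.41, SE 0.14), PDGFRA (0.63, SE 0.10) and PDGFRB (0.96, SE 0.07). Their part in the lower ETS1 level was not tested, and in bulk RNA fewer cells with a transcript and less of it per cell cannot be told apart.

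Genes of proteins that work with or control ETS factors went both ways: of 20 tested, 8 rose and 3 fell (median 0.02). By the same test 29.4% of all tested genes rose and 30.7% fell. FBXW7, a ubiquitin ligase subunit, rose by 0.44 (SE 0.06, edgeR adjusted p = 6.1e-05) beside a neighbourhood median of 0.37, TRIB1, an adaptor of the ubiquitin ligase COP1, rose by 0.34 (SE 0.04, edgeR adjusted p = 2.2e-05), and ATXN1, a partner of CIC, rose by 0.27 (SE 0.04, edgeR adjusted p = 1.6e-04). FOS was scarce and lower (-0.91, SE 0.27, edgeR adjusted p = 0.010). EP300, a coactivator, fell by 0.37 (SE 0.04, edgeR adjusted p = 1.1e-05) beside a median of -0.25. GABPB1, the partner of GABPA, fell by 0.16 (SE 0.05, edgeR adjusted p = 0.010) while GABPA was higher. The neighbourhood median of GABPB1 was -0.155, close to its own value. COP1, whose protein marks ETV1, ETV4 and ETV5 for degradation, was singled out after its value was seen and rose by 0.25 (SE 0.05, edgeR adjusted p = 8.3e-04). Without wild-type replicate 1, 5 genes of the list fell in place of 3, where 32.5% of all tested genes fell.

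Of 18 kinases and adaptors from RAS to ERK and its relatives, 5 rose and 4 fell (median 0.02), against 29.4% and 30.7% of all genes. RPS6KA3, an ERK-activated kinase, had the largest change, from 530 ± 13.7 to 253 ± 1.22 CPM (log2 fold change -1.07, SE 0.03, edgeR adjusted p = 3.0e-11), beside a neighbourhood median of -0.26. The ERK-activating kinase genes moved apart: MAP2K2 fell by 0.46 (SE 0.04, edgeR adjusted p = 7.3e-07), beside neighbours at -0.54, and MAP2K1 rose by 0.31 (SE 0.05, edgeR adjusted p = 1.4e-04), beside neighbours at 0.26. The scaffold gene KSR1 fell by 0.33 (SE 0.06, edgeR adjusted p = 3.4e-04), and the stress kinase genes MAPK8 (0.40, SE 0.05, edgeR adjusted p = 1.6e-05) and MAPK14 (0.16, SE 0.06, edgeR adjusted p = 0.035) rose. Without any 1 of the 3 knockout libraries, 3 genes rose in place of 5.

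Genes known to respond to ERK or to loss of CIC, the class to which ETV1, ETV4 and ETV5 themselves belong, were mostly lower. Of 14 tested, 9 fell and 2 rose, with a median of -0.21, where 30.7% of all genes fell and 29.4% rose. The list was drawn up with earlier results of these data known, the PEA3 values among them. Nothing is therefore read from these counts or this median. The feedback inhibitor genes SPRY4, from 39.6 ± 2.48 to 18.2 ± 0.541 CPM (log2 fold change -1.12, SE 0.06, edgeR adjusted p = 8.1e-09), and SPRY2, from 41.0 ± 0.941 to 23.7 ± 0.538 CPM (-0.79, SE 0.05, edgeR adjusted p = 2.3e-08), fell most. DUSP6, an ERK phosphatase, fell from 68.3 ± 0.561 to 47.5 ± 1.60 CPM (edgeR adjusted p = 1.8e-07). The related phosphatase genes DUSP4, from 13.2 ± 0.621 to 32.3 ± 1.34 CPM (edgeR adjusted p = 2.6e-09), and DUSP5 (0.40, SE 0.05, edgeR adjusted p = 1.6e-05) rose, beside neighbourhood medians of -0.41 and 0.41. The genes of the list therefore did not share 1 direction. Of the PEA3 genes, ETV1 and ETV5 were lower and ETV4 was not called.

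SRF and ELK responsive genes had 4 of 11 higher and 2 lower (median 0.17), against 29.4% and 30.7% of all genes. CCN1, which encodes a secreted matrix protein, rose from 76.2 ± 4.31 to 128 ± 3.70 CPM (edgeR adjusted p = 1.7e-08), beside a neighbourhood median of -0.09. The actin-linked VCL (0.20, SE 0.03, edgeR adjusted p = 2.8e-05) and the survival gene MCL1 (0.18, SE 0.03, edgeR adjusted p = 4.2e-04) rose by less than their neighbourhood medians of 0.45 and 0.26. The immediate-early genes EGR1 (-0.74, SE 0.11, edgeR adjusted p = 6.3e-05) and FOS fell. Without wild-type replicate 2, or without knockout replicate 1, 1 gene fell in place of 2.

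GABP responsive genes had 1 of 12 higher and 4 lower (median -0.04), against 29.4% and 30.7% of all genes. POLRMT, the mitochondrial RNA polymerase, fell by 0.54 (SE 0.04, edgeR adjusted p = 1.3e-07) and TFB2M, its initiation factor, by 0.48 (SE 0.06, edgeR adjusted p = 1.8e-05), beside neighbourhood medians of -0.42 and -0.45. SKP2, a ubiquitin ligase subunit, fell by 0.19 (SE 0.03, edgeR adjusted p = 1.4e-04), and TFB1M rose by 0.31 (SE 0.08, edgeR adjusted p = 0.0048). Without wild-type replicate 1, 7 genes fell in place of 4, where 32.5% of all tested genes fell.

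Of 18 genes listed as ETS1 or PEA3 responsive 10 were tested, and 2 rose and 4 fell (median -0.02), against 29.4% and 30.7% of all genes. The receptor gene MET fell by 0.42 (SE 0.03, edgeR adjusted p = 1.8e-07) and the protease gene PLAU by 0.28 (SE 0.07, edgeR adjusted p = 0.0039). SPP1, osteopontin, rose from 2.91 ± 0.327 to 17.9 ± 0.693 CPM (edgeR adjusted p = 2.9e-10), and the scarce TIMP1 rose by 1.57 (SE 0.27, edgeR adjusted p = 2.4e-04). MMP1 and MMP9, matrix protease genes named after their values were seen, had 0 counts in every library.

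**Figure D4:**
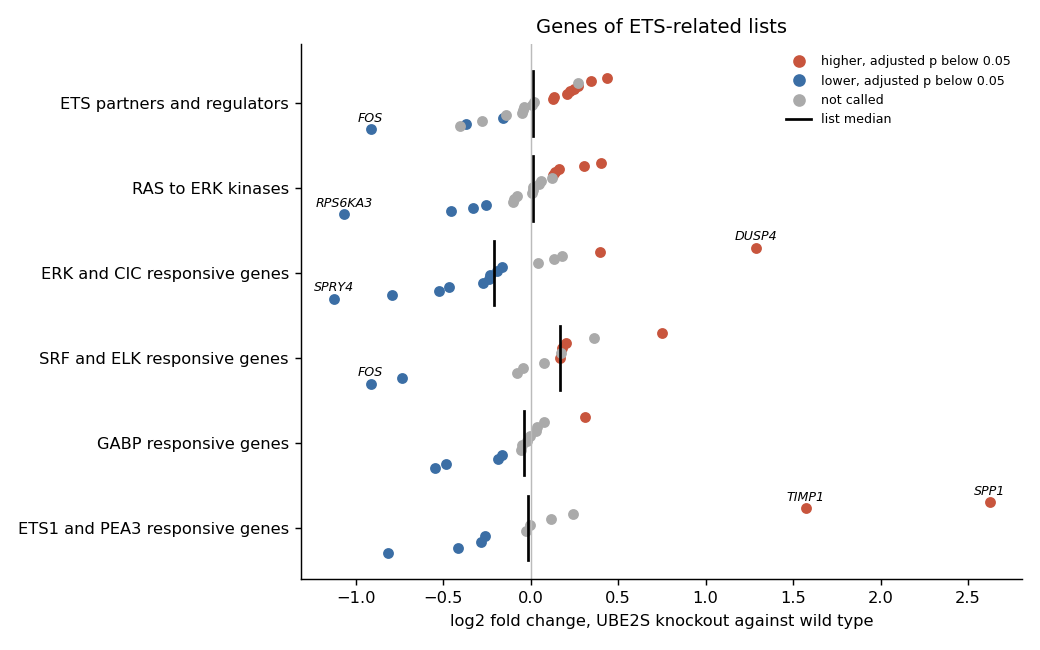
Log2 fold change of each tested gene in 6 lists of ETS-related genes, with genes called higher (red), called lower (blue) or not called (grey) by edgeR at an adjusted p below 0.05, and the list median as a black line. The ERK and CIC responsive genes have the lowest median (-0.21), and SPRY4 and DUSP4 lie at opposite ends of that list.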

How the data were processed

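Poly(A) RNA-seq covered 6 Huh7 libraries, 3 wild type and 3 UBE2S knockout, grouped by sample title. The labels' protocols describe oligo(dT) selection of mRNA before Illumina sequencing. The submitters' processing notes list StringTie 1.3.1, HISAT2, Bowtie2 2.2.8 and DESeq2 without their roles. The counting program, annotation, build and strand setting were not given in the sources used here, so sense and antisense reads (ETS1, ELF3 and ETV5 have an antisense gene) cannot be told apart. The authors deposited estimated counts per gene, not normalized, which were rounded here. Library totals set the precision: counting intervals cover counting error only.

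Genes were kept by filterByExpr (minimum count 10), scaled by TMM and tested with edgeR 4.0.16 quasi-likelihood F tests, knockout against wild type, with no covariate, Benjamini-Hochberg adjustment and a threshold of 0.05; standard errors come from the fold change and its F statistic. CPM use the TMM-scaled library size. Replicates are not said to be separate cultures, so p-values may reflect technical spread alone.

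Gene positions and exon lengths are from GENCODE release 29; upstream windows are from RefSeq. The members and all gene lists were chosen with earlier results of these data known. All 10 members are named; in each list up to 3 called genes per direction with the largest change are named, except for a few genes not reported here. Alternatives were other scalings, no filter, DESeq2 1.42.0, a replicate block, each library left out, removal of the neighbourhood median, and another gene length.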

Additional observations from a re-analysis of the deposited data

How the results depend on the processing

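The calls and directions of ETS1, ETS2, ELF3, ETV1, ETV5 and GABPA held under all 11 refits. These covered scaling, filter, DESeq2, replicate block and each library left out. ETV4 and ELF1 were called in none. All refits draw on the libraries and the contrast on which the members were chosen, so they show dependence on processing only. ELK1 passed the threshold in 3 refits (without scaling beyond the total, with the block, and without wild-type replicate 1) and ERF in 2 (with the block, and without that library). Hence 4 members were called higher with the replicate block, against 2 without it, and 2 to 4 with 1 library left out. Replicate numbers are not said to pair the libraries. Deviations of libraries with equal numbers had correlations of -0.0041, -0.019 and -0.010, which with 3 libraries per group cannot exclude a pairing. The block changed no other member's call. With the neighbourhood median removed, the log2 fold changes were -0.26 for ELF3, -1.12 for ETV1, -0.075 for ETV4, -0.12 for ETV5 and 0.47 for ERF; the other members moved by less than the replicate SD. With the longest transcript as gene length, wild-type levels per kb were 1.31 for ETS1, 18.6 for ETS2, 24.0 for ELF1, 15.0 for ELF3, 3.53 for ETV1, 49.9 for ETV4, 11.7 for ETV5, 8.37 for ELK1, 6.64 for GABPA and 28.5 for ERF, in the same order as before. The cause of each move was not tested, apart from the shorter length used. Depth limits ETS1 in the knockout, where 24 counts in all leave its fold wide.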

Other observations

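For ETV1 and ETV5, the members with a mean of at least 5 CPM and the largest differences, the genes with the most similar profile over the 6 libraries were found among 10554 genes of that level, by the root mean square distance of log2 CPM centred on its mean. Closest to ETV1 were HECTD3, a ubiquitin ligase gene (distance 0.035, from 59.2 to 32.8 CPM), LOXL2, a lysyl oxidase gene (0.039, from 28.98 to 15.8 CPM), and PLBD1 (0.052, from 48.0 to 24.6 CPM). Closest to ETV5 were CTXND1 (0.016, from 42.8 to 33.2 CPM), HIRA, a histone chaperone gene (0.020, from 100.7 to 78.3 CPM), and NACC2 (0.020, from 91.5 to 72.1 CPM). With 2 groups of 3 libraries these distances mostly describe genes with a like difference between the groups.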
